A study of Homo sapiens with 18 samples.

Results

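The genes that encode the proteins of the cytosolic ribosome were examined at their start sites in ChIP-seq peak lists. Members were all protein-coding genes of the GENCODE annotation on chromosomes 1 to 22 whose symbol is RPL or RPS followed by a number (with an optional A, X or L), RPSA, or a stalk protein symbol (RPLP0, RPLP1 and RPLP2), and the RPS6K kinases were left out. This gave 77 genes of 19111, of which 31 encode proteins of the small subunit (RPS) and 46 encode proteins of the large subunit (RPL). The choice used names only and no measured value.

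ChIP-seq had been carried out on HEK293T cells, an established human embryonic kidney line. Untreated cells (CTRL) were compared with cells exposed to 1 mM valproic acid (VPA) for 1 day, with 3 libraries per group for H3K27ac, an acetyl mark of histone H3 at active promoters and enhancers, and 3 per group for CTCF, a zinc-finger protein that organises chromatin loops. VPA inhibits histone deacetylases. All groups share the same cell line, and the label of replicates does not say whether they were separate cultures, so p-values measure the spread between these libraries, which may be technical.

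A ribosome is built from ribosomal RNA and a set of proteins, each present in a single copy apart from the paired stalk proteins. Most genes of the set are transcribed at high rates in growing cells. Their promoters often lack a canonical TATA box, and the messenger RNAs usually begin with a C followed by a run of pyrimidines, the 5′ terminal oligopyrimidine (TOP) tract through which the mTOR pathway controls their translation. Many of these genes also carry small nucleolar RNAs in their introns.

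The promoter letters show what the members have in common. RefSeq promoter windows (build GRCh38.p14, 250 bases before to 50 bases after each start) matched 60 of the 77 members and 14616 protein-coding genes in all. The window of 54 of the 60 began transcription within 10 bases of the canonical GENCODE start. C was the start base in 44 of the 60 (73.3%), against 11.2% of all windows. A run of at least 6 pyrimidines lay over the start base in 41 of the 60 (68.3%), against 6.58% of all windows, and the longest such run held 25 bases. The ETS letters CCGGAA, read by factors such as GABPA, were found on either strand in 34 windows (56.7%), against 23.4% of all. The letters TCGCGAGA were found in 11 (18.3%), against 1.76%, and the YY1 letters AAGATGGCG in 5 (8.33%), against 2.86%. The SP1 letters GGGCGG were found in 33 (55.0%), against 59.6%, and TATAA in 12 (20.0%), against 16.8%. The CTCF core letters CCCTC were found in 41 (68.3%), against 76.7%. Median GC content was 59.3% in the members and 63.0% in all windows. These letters describe the windows and are not evidence of a bound factor.

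Some of these promoters are written out because their genes are named in the results below. RPL7A, RPL35 and RPL3 carried high H3K27ac that was lower in VPA, RPLP0, RPLP1 and RPLP2 encode the stalk, RPS16, RPS25, RPS26 and RPS27 had small differences in height, and RPS27L is a paralogue of RPS27. Each line runs 5′ to 3′ from 100 bases before the start to 20 bases after it, in build GRCh38.p14. Capitals mark the pyrimidine run over the start, and the SP1, ETS, YY1 and TATA letters above on either strand, and adjoining or overlapping matches merge into a single stretch of capitals.
RPL7A, chr9:133348118-133348237, plus strand: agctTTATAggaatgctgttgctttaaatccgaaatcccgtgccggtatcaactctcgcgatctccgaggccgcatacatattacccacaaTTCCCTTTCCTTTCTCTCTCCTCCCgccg
RPL35, chr9:124861938-124862057, minus strand: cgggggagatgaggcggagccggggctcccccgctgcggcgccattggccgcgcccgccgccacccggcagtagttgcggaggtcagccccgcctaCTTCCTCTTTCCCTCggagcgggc
RPL3, chr22:39319604-39319723, minus strand: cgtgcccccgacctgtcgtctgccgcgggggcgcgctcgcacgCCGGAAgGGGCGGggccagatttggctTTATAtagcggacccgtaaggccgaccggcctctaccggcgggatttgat
RPLP0, chr12:120201092-120201211, minus strand: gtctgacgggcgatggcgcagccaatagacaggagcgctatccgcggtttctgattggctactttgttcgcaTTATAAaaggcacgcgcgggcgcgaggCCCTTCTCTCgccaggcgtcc
RPLP1, chr15:69452718-69452837, plus strand: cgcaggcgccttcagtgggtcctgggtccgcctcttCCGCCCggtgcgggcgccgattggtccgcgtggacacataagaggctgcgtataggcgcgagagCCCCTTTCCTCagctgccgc
RPLP2, chr11:809867-809986, plus strand: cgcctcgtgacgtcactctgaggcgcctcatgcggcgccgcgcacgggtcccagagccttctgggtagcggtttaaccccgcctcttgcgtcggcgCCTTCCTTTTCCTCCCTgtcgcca
RPS16, chr19:39435930-39436049, minus strand: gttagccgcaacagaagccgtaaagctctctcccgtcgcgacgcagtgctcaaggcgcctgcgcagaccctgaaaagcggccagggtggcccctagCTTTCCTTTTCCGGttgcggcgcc
RPS27, chr1:153990662-153990781, plus strand: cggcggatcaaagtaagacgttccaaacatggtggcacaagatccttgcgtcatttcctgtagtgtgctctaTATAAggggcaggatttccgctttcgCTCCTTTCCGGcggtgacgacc
RPS25, chr11:119018324-119018443, minus strand: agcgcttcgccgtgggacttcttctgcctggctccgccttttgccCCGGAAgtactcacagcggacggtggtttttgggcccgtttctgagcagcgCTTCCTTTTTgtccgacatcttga
RPS26, chr12:56041818-56041937, plus strand: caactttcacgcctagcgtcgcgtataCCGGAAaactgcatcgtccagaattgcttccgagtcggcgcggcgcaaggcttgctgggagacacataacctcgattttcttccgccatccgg
RPS27L, chr15:63157458-63157577, minus strand: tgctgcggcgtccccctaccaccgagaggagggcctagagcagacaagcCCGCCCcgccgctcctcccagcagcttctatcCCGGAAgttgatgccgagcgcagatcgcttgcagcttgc
In RPL7A the run over the start has 25 pyrimidines. In RPLP1 it has 11 and in RPLP2 it has 17. RPS26 and RPS27L have none over the RefSeq start base, and RPL3 has 5, which is below the minimum of 6.

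Peaks of each list were assigned to a gene where they came within 1 kb of the 5′ end of its gene record. An H3K27ac peak was found at 71, 72 and 72 of the 77 members in the 3 CTRL libraries and at 71, 72 and 72 in the 3 VPA libraries, a difference of 0 between group means (SD 0.577 in each group, n = 3). A total of 71 members (92.2%) had a peak in all 6 libraries, against 58.1% of all 19111 genes. No member gained its peak in VPA or lost it there. Among all genes, 54 had a peak in the 3 VPA libraries and in no CTRL library.

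The 6 members without a peak in every library were RPL22, RPL39L, RPL10L, RPL4, RPL36 and RPL3L. In RPL22, RPL39L, RPL4 and RPL36 the gene record begins 9794, 41412, 19677 and 15348 bp from the start of the canonical transcript, so the window lay at an outlying transcript. At the canonical start, 75 of 77 members had a peak in all 6 libraries, against 61.0% of all genes. RPL36 then had pileups, the number of fragments over the peak summit, of 2194, 1751 and 1631 in CTRL and 1101, 851 and 875 in VPA. RPL4 had 837, 819 and 745 in CTRL and 570, 519 and 502 in VPA. RPL22, a large-subunit protein that binds small viral RNAs, had 675, 510 and 392 in CTRL and 443, 361 and 328 in VPA. In all 3 genes every VPA library was below the CTRL library of the same number, and in RPL22 the groups overlapped.

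The paralogues were set apart. RPL10L, an intronless copy of RPL10 known from testis, and RPL3L, the muscle paralogue of RPL3, had no H3K27ac peak at their canonical start in any library. RPL3L had a peak within 1 kb of its gene record in 4 of 6 libraries, but this was the wide peak of RPS2, with the same pileups as RPS2 in those libraries. RPL39L, another paralogue known from testis, had a peak at its canonical start in all 6, with pileups of 304, 239 and 199 in CTRL and 234, 182 and 193 in VPA. RPS27L, a paralogue of RPS27 that p53 induces, had pileups of 477, 348 and 333 in CTRL and 303, 207 and 211 in VPA, the lowest mean of the 71 in VPA.

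The H3K27ac peaks of the members were among the most significant of their lists. Each peak was ranked within its own list by the −log10 q-value, with 100 for the highest. The median rank of the 71 members with a peak in all 6 libraries was 99.1, 98.96 and 99.1 in CTRL and 99.3, 99.2 and 99.1 in VPA. Among all 11109 promoters with a peak in all 6 libraries it was 78.4, 81.1 and 81.1 in CTRL and 85.2, 86.5 and 86.4 in VPA. The mean rank over the 6 libraries was above 99 in 36 members (50.7%), against 2.70% of all promoters tested. Of the 300 promoters above that rank, 36 belonged to the members.

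RPS2, a small-subunit protein at the entrance of the messenger RNA channel, had the highest mean rank, 99.99 over the CTRL libraries, followed by RPL7A. RPS27L (84.1), RPS21 (85.3) and RPS25 (87.6) had the lowest mean ranks over the 6 libraries. These 3 and RPS26 (88.6) were the 4 members below 90.

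The height of the mark, as pileup relative to the background of the library, was lower in VPA than in the CTRL library of the same number at all 71 members, in all 3 numbers, which was so at 80.5% of all promoters. The median summit pileup of the 71 members was 1159, 1004 and 944 fragments in CTRL and 719, 562 and 561 in VPA, or 1036 ± 111 and 614 ± 90.9 (mean ± SD, n = 3). The medians of the 2 groups did not overlap. Over all 11109 promoters the median was 385 ± 67.8 in CTRL and 299 ± 53.2 in VPA, and there the groups overlapped, since VPA replicate 1 at 360 lay above CTRL replicate 3 at 330. Pileups were recovered from the deposited fold enrichment and p-value of each peak and, for tests, divided by the background coverage of the library, which lay between 3.51 and 3.95 fragments in the 12 libraries. No spike-in was stated, so total acetylation per cell cannot be compared between the groups.

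**Figure D1:**
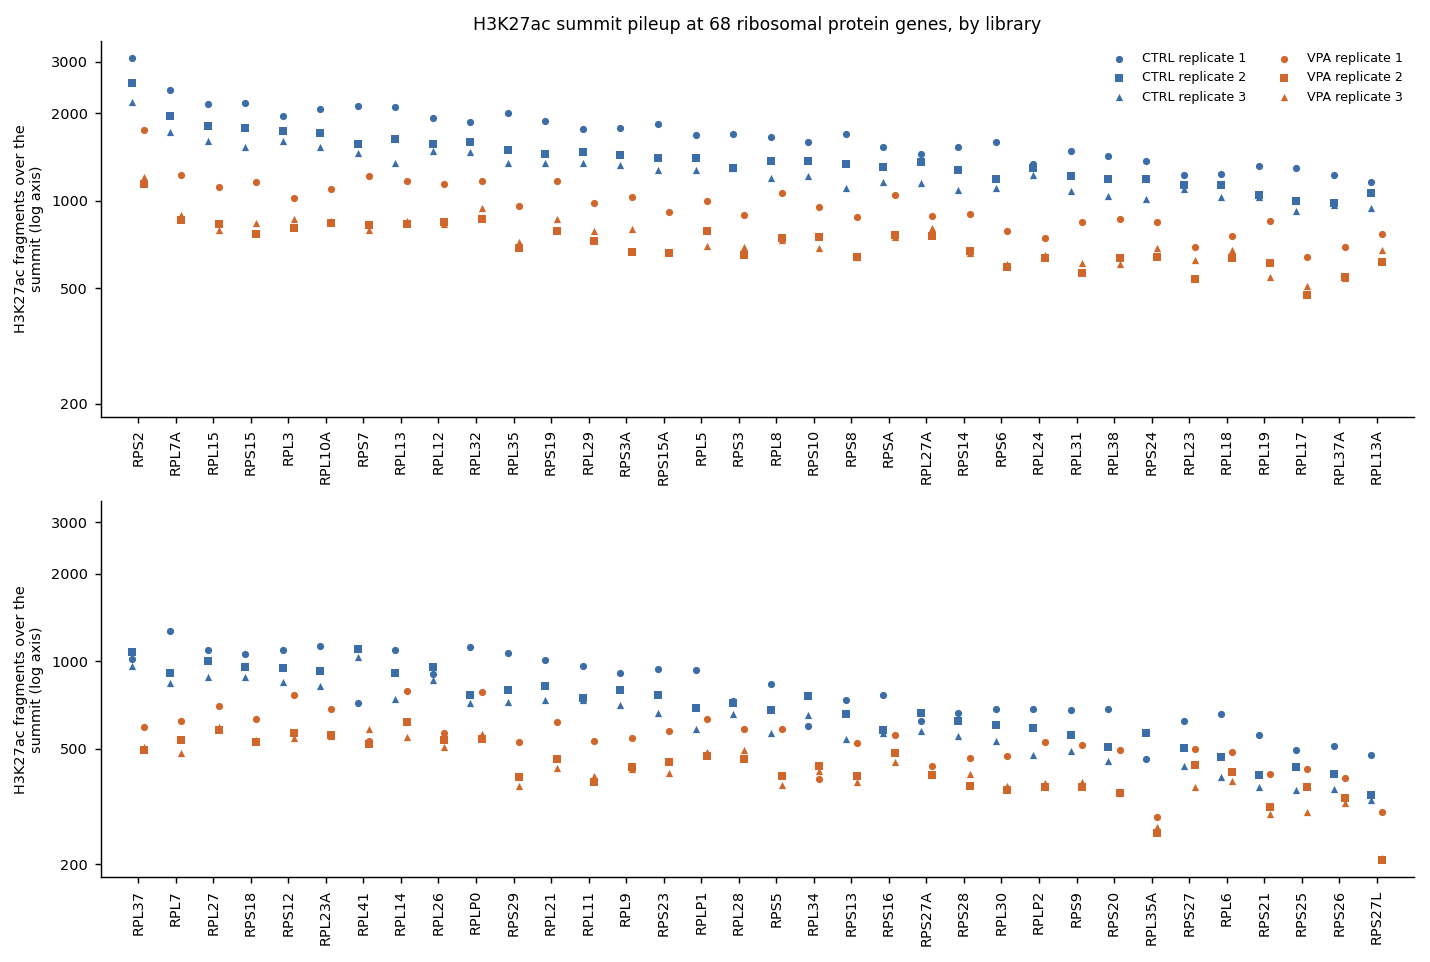
H3K27ac fragments over the peak summit (log axis) in each of the 6 libraries at 68 of the 71 ribosomal protein genes with a peak in every library, ordered by the CTRL mean. Blue marks are CTRL and orange marks are VPA, with circles, squares and triangles for replicates 1, 2 and 3. The orange marks of a gene lie below the blue mark of the same shape at all 68 genes.

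Tested with limma on log2 depth-scaled pileups over all 11109 promoters, 54 of 71 members were lower in VPA and 0 were higher (Benjamini-Hochberg adjusted p below 0.05), against 25.6% and 0.666% of all promoters tested. The median log2 difference was −0.82 over the members (0.567-fold) and −0.43 over all promoters (0.744-fold). The depth-scaled pileup of the 3 VPA libraries lay wholly below that of the 3 CTRL libraries at 61 of 71 members, against 37.9% of all promoters. Within replicate numbers 1, 2 and 3 the median log2 difference of the members was −0.73, −0.91 and −0.77, against −0.39, −0.51 and −0.39 over all promoters. The count depended on single libraries. Without a CTRL library it was 22 (replicate 1 left out), 23 (replicate 2) or 34 (replicate 3). Without VPA replicate 2 or VPA replicate 3 it was 0, and without VPA replicate 1 it was 67. The share of all promoters called in these fits is not given here, so the counts cannot be set against it. With the replicate number as a block, all 71 were called lower, against 75.7% of all promoters.

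The same comparison was made relative to the median promoter of each library, which sets the shift of all promoters to about 0. A total of 53 members were then lower and 0 higher, against 23.7% and 18.5% of all promoters, so on this scale the calls over all promoters were split nearly evenly between directions and those of the members were not. The median log2 difference was −0.40 in the members. With the replicate block 58 were lower and 0 higher, against 29.6% and 24.7% of all promoters. The members called on both scales numbered 52.

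RPL7A, a large-subunit protein, showed the lowest log2 difference. Its pileup was 2400, 1959 and 1721 fragments in CTRL and 1223, 856 and 895 in VPA. The groups were well apart, and the difference was −1.08 (SE 0.26, limma adjusted p = 0.00178). RPL35, a protein at the exit of the peptide tunnel, had 1996, 1492 and 1345 in CTRL and 960, 686 and 720 in VPA. The difference was −1.07 (SE 0.26, limma adjusted p = 0.00185), with no overlap. RPL3, which reaches towards the peptidyl transferase centre, had 1961, 1735 and 1605 in CTRL and 1019, 806 and 862 in VPA. The difference was −1.03 (SE 0.26, limma adjusted p = 0.00266). RPL7A, RPL15 (−1.08) and RPL35 were picked here as the lowest values after they were seen. Differences of −1 or lower were found at 10 members.

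RPS2 had the highest pileup of all members in every library, with 3097, 2529 and 2188 fragments in CTRL and 1744, 1140 and 1205 in VPA. The difference was −0.99 (SE 0.26, limma adjusted p = 0.00394). Its mean rank by −log10 q-value was above 99 in both groups. RPSA, which is also known as the laminin receptor, had 1526, 1300 and 1155 in CTRL and 1047, 759 and 748 in VPA, a difference of −0.70 (limma adjusted p = 0.0336), with no overlap.

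The stalk genes, whose products recruit the elongation factors, had smaller differences. RPLP0 had pileups of 1121, 765 and 719 in CTRL and 785, 540 and 561 in VPA. RPLP1 had 933, 688 and 586 in CTRL and 634, 471 and 486 in VPA. RPLP2 had 684, 589 and 474 in CTRL and 526, 370 and 380 in VPA. In all 3 genes replicate 1 was the highest library of its group and VPA replicate 1 overlapped the CTRL range. The log2 differences were −0.51, −0.50 and −0.50, with limma adjusted p-values of 0.113, 0.111 and 0.109. With the replicate block the 3 limma adjusted p-values were 1.07e-06, 1.59e-06 and 2.88e-06. The blocked fit called 75.7% of all promoters lower, and it assumes a pairing of libraries that the labels do not state.

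The smallest differences were at RPS27, RPS25 and RPS26 among genes whose record begins within 1 kb of the canonical start. RPS27 had 622, 502 and 435 fragments in CTRL and 500, 440 and 369 in VPA, and RPS25 had 495, 432 and 361 in CTRL and 427, 368 and 302 in VPA. Their log2 differences were −0.29 and −0.28 (limma adjusted p = 0.346 and 0.365), and the groups overlapped. RPS26 had 509, 408 and 364 in CTRL and 397, 339 and 325 in VPA, a difference of −0.31 (limma adjusted p = 0.316). The 17 members that did not pass had adjusted p-values from 0.0527 to 0.403.

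For RPL6 and RPS29 the annotated gene record begins 9233 and 12784 bp from the canonical start, and the peaks within 1 kb of the record are not those of the canonical start. At the record, RPL6 had 660, 467 and 399 fragments in CTRL and 486, 417 and 388 in VPA, a difference of −0.26 (limma adjusted p = 0.403). At its canonical start it had 1248, 1108 and 983 in CTRL and 605, 521 and 531 in VPA, a difference of −1.05 (SE 0.26, limma adjusted p = 0.00224). RPS29 went the other way, with −1.04 (limma adjusted p = 0.00208) at the record and −0.54 (limma adjusted p = 0.0873) at the canonical start. With the canonical start for every gene, 56 of 75 members were called lower, against 25% of 11661 promoters.

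The size of the difference varied with the level of the mark, in the members as in the other promoters. Over the 71 members, the correlation between the mean log2 pileup and the log2 difference was r = −0.66. It is given as a description, since the points share libraries. In promoters other than members, the median log2 difference was −0.44 at mean ranks of 80 to 90 (3215 promoters), −0.56 at 90 to 95 (1721), −0.67 at 95 to 98 (920), −0.75 at 98 to 99 (302) and −0.83 above 99 (264). The members in the same ranges had medians of −0.36 (4 genes), −0.61 (12), −0.75 (10), −0.72 (9) and −0.92 (36). Genes that start under the peak of a member were kept among the other promoters, so some peaks count in both sets. The range of levels among the members narrowed little, from 6.75 times between the lowest and the highest mean in CTRL to 5.67 times in VPA.

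**Figure D2:**
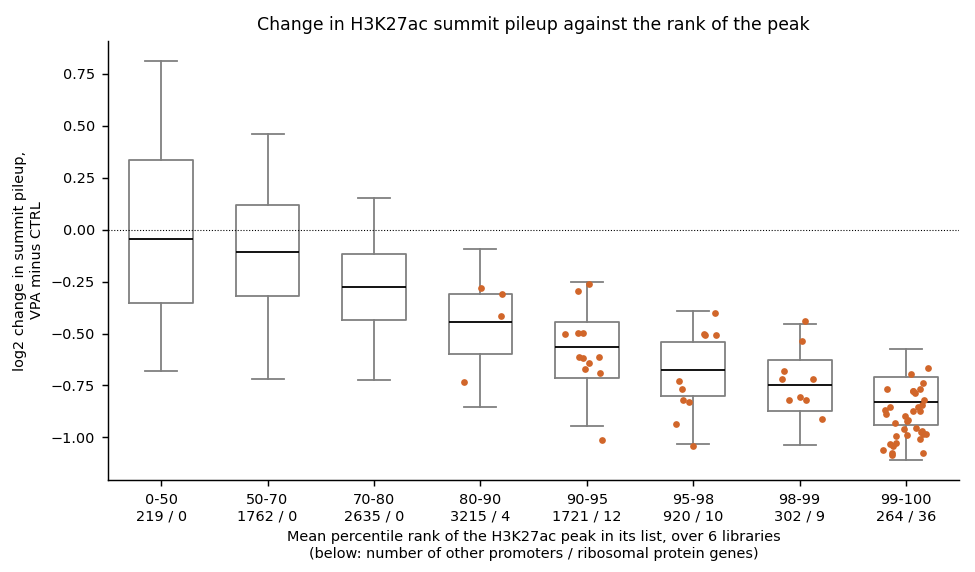
The log2 difference in H3K27ac summit pileup, VPA minus CTRL, of promoters with a peak in all 6 libraries, grouped by the mean percentile rank of the peak by −log10 q-value. Boxes show the quartiles and median of the other promoters and whiskers their 5th to 95th percentiles, and orange points are the ribosomal protein genes. The other promoters include genes that start under the peak of a ribosomal protein gene. The median of the other promoters went from −0.05 at the lowest ranks to −0.83 at the highest, and 36 of the 71 genes lie in the highest range.

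The members are split below by subunit and host status, beside 25.6% called lower and a median of −0.43 over all promoters. Of the small-subunit genes 20 of 31 were called lower and of the large-subunit genes 34 of 40, with median log2 differences of −0.77 and −0.83. The annotation names 31 members (40.3%) as hosts of a non-coding RNA, against 11.2% of all genes. Among hosts 25 of 30 were lower (median −0.80) and among the other members 29 of 41 (median −0.82). The differences between these shares were not tested. At the canonical start, the median difference was also read with and without each of the 7 kinds of promoter letters, with no test. The widest gap was at TATAA, with −0.61 in the 11 genes whose window held it and −0.81 in the 48 without it. For TCGCGAGA the medians were −0.87 (11 genes) and −0.77 (48 genes). For the other 5 the medians lay between −0.82 and −0.78 with the letters and between −0.82 and −0.77 without them.

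The deposited fold enrichment, the pileup over its local background, gave the same direction with more spread. Its median over the members was 30.79, 71.02 and 65.94 in CTRL and 20.67, 42.45 and 45.68 in VPA. Replicate 1 of both groups was the lowest, and its median local background over the members was 39.3 in CTRL and 38.7 in VPA, against 12.4 to 13.4 in the other 4 libraries. The part of this background in the fold was not tested further. On log2 fold, limma called 0 of 71 members (0 at an unadjusted p below 0.05), and with the replicate block it called 47 lower, against 18.6% of all promoters. Ranked by fold within each list, 0 of 71 were called (2 at an unadjusted p below 0.05, both higher), against 0.009% of all promoters. At an unadjusted limma p below 0.05, 794 of all 11109 promoters were higher and 67 lower. With the block RPS27 was the 1 member called higher on this rank (limma adjusted p = 0.0482), against 7.08% of all promoters.

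The fold ranks in VPA lay wholly above those in CTRL at 7 of 71 members, against 13.1% of all promoters. The largest rises in this rank among members whose groups did not overlap were at RPS27, RPLP2 and RPLP1. RPS27 had fold ranks of 85.7, 81.1 and 75.6 in CTRL and 98.3, 91.4 and 88.8 in VPA. RPLP2 had 74.6, 87.2 and 87.8 in CTRL and 89.2, 95.8 and 96.9 in VPA, and RPLP1 had 86.5, 88.1 and 84.9 in CTRL and 89.0, 93.7 and 98.1 in VPA. Without the block their limma adjusted p-values were 0.568, 0.612 and 0.659. Ranks were wholly lower in VPA at 2 of 71 members, RPS3 and RPL23, against 1.14% of all promoters. RPS3 is a protein at the messenger RNA entry that also has a role in DNA repair. RPS3 had 99.5, 99.8 and 99.8 in CTRL and 98.6, 99.3 and 99.4 in VPA (limma adjusted p = 0.794). RPL23 had 99.4, 99.5 and 99.8 in CTRL and 99.4, 96.6 and 99.2 in VPA (limma adjusted p = 0.794).

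**Figure D3:**
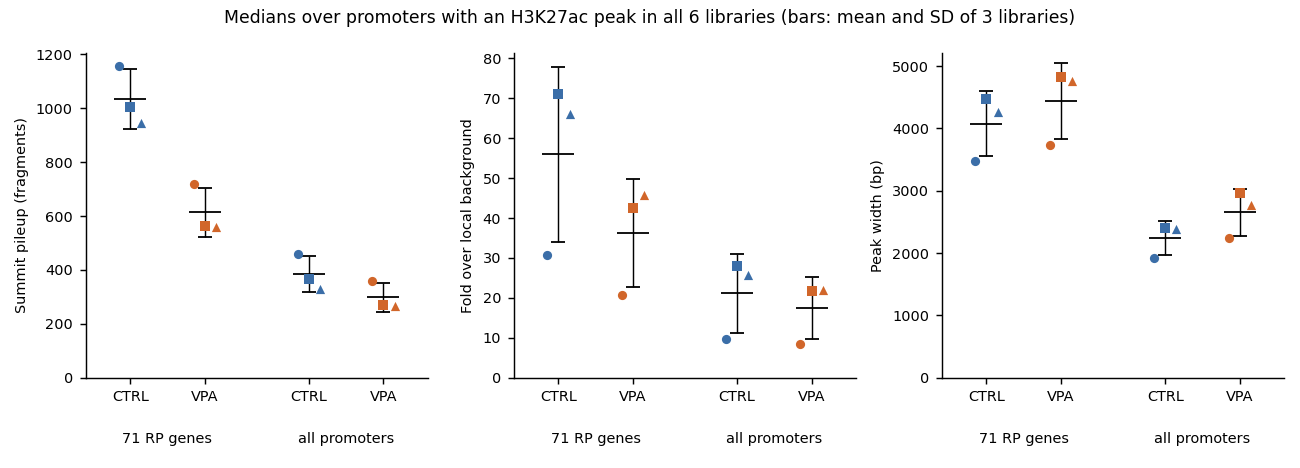
Medians of the summit pileup in fragments, the fold over local background and the peak width in bp, for the 71 ribosomal protein genes and for all 11109 promoters with an H3K27ac peak in all 6 libraries. Marks are libraries (blue CTRL, orange VPA, circle, square and triangle for replicates 1, 2 and 3), and bars are the mean and SD of 3 libraries. The pileup of the genes is lower in all 3 VPA libraries (561 to 719) than in the CTRL libraries (944 to 1159), and the widths overlap.

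Within the lists the members moved both ways. By the rank of the −log10 q-value, compared after a normal-score transformation, 19 of 71 were higher in VPA and 3 lower, against 51.7% and 2.05% of all promoters. With the replicate block 24 were higher and 6 lower, against 64% and 2.75%. The VPA lists were longer, with 38441 to 40992 H3K27ac peaks against 26299 to 29799 in CTRL, which raises the percentile of a peak that keeps its place. Ranked instead among the 11109 shared promoters alone, 3 members were higher and 7 lower, against 6.74% and 8.16% of all promoters.

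RPS27, a small-subunit protein with a zinc finger, had ranks of 87.6, 86.9 and 84.5 in CTRL and 97.4, 95.9 and 92.8 in VPA. The groups did not overlap, and the normal score rose by 0.61 (SE 0.12, limma adjusted p = 0.00207). It remained higher among shared promoters (limma adjusted p = 0.0497), as did RPL6 at its gene record (limma adjusted p = 0.0339). RPS25 and RPS16 were also among the 5 most significant rises, with scores higher by 0.40 and 0.42 (limma adjusted p = 0.00494 and 0.0066), and neither passed among shared promoters (limma adjusted p = 0.225 and 0.126).

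The 3 members with lower ranks were RPS29 at its gene record, RPL35 and RPL3. RPS29 had 97.1, 96.9 and 97.1 in CTRL and 90.4, 95.3 and 94.4 in VPA (score lower by 0.36, limma adjusted p = 0.017). RPL35 had 99.88, 99.89 and 99.89 in CTRL and 99.63, 99.73 and 99.78 in VPA, and the normal score fell by 0.28 (SE 0.09, limma adjusted p = 0.0176). RPL3 had 99.92, 99.96 and 99.96 in CTRL and 99.89, 99.87 and 99.90 in VPA, and the score fell by 0.21 (SE 0.08, limma adjusted p = 0.044). Each of the 3 was also lower among shared promoters, as were RPS27L, RPS6, RPL15 and RPL7A. RPS6 is the substrate of the S6 kinases that follow mTOR activity.

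The members had wide H3K27ac peaks. Their median width was 3484, 4467 and 4267 bp in CTRL and 3736, 4821 and 4761 bp in VPA, or 4073 ± 520 and 4439 ± 610 (SD, n = 3). The groups differed by 367 bp, less than the SD of either, and by 72.3 bp without CTRL replicate 1 and 718 bp without VPA replicate 1. Within replicate numbers 1, 2 and 3 the VPA median was 1.07, 1.08 and 1.12 times the CTRL median. Over all promoters the medians were 2236 ± 274 and 2656 ± 378 bp, and the ratios 1.16, 1.24 and 1.16. No member was called for width by limma, against 0.009% of all promoters. At an unadjusted limma p below 0.05, 2 members were wider and 0 narrower, against 1022 and 5 of all 11109 promoters. With the replicate block 0 members were called for width as well, against 0% of all promoters. At an unadjusted p below 0.05 the blocked limma fit had 12 members wider and 1 narrower, against 3632 and 33 of all promoters. The VPA widths lay wholly above the CTRL widths at 6 of 71 members, against 17.6% of all promoters. The largest of these 6 differences were at RPLP0, RPS26 and RPL12. RPLP0 had widths of 3571, 4858 and 4681 bp in CTRL and 6704, 6829 and 6896 bp in VPA, a log2 difference of 0.65 (SE 0.16, limma adjusted p = 0.391). No member had VPA widths wholly below the CTRL widths.

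The widest peaks were at RPS15, RPL23A and RPS2. RPS15 had 7134, 9573 and 9318 bp in CTRL and 8207, 11843 and 12001 bp in VPA. RPL23A, whose introns hold small nucleolar RNAs, had 6199, 6993 and 6957 bp in CTRL and 6286, 14054 and 14644 bp in VPA, so VPA replicate 1 did not share the extension of the other VPA libraries. RPS27, RPL6 at its gene record and RPS27L had the narrowest peaks. Widths of RPS27 were 1700, 1928 and 1929 bp in CTRL and 1795, 3297 and 2787 bp in VPA, and the groups overlapped.

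The peaks of the members reached further than those of all promoters on both sides of the start. Measured from the canonical start of the 75 members with a peak there in all 6 libraries, the peak reached a median of 1235 ± 89.2 bp upstream and 2744 ± 360 bp downstream in CTRL, and 1446 ± 134 bp upstream and 2700 ± 348 bp downstream in VPA (SD, n = 3). Over 11661 promoters the reach was 906 ± 100 bp upstream and 1222 ± 133 bp downstream in CTRL, and 1073 ± 127 bp and 1434 ± 204 bp in VPA. In CTRL the peak reached further downstream than upstream at 89.8% ± 1.54 of the members and at 68.1% ± 0.670 of all promoters. In VPA the shares were 85.8% ± 0.770 and 66.9% ± 1.53. The difference between the groups was not tested. The summit lay a median of 266 ± 23.6 bp after the start in CTRL and 283 ± 20.3 bp after it in VPA, which is within the spread between libraries.

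**Figure D4:**
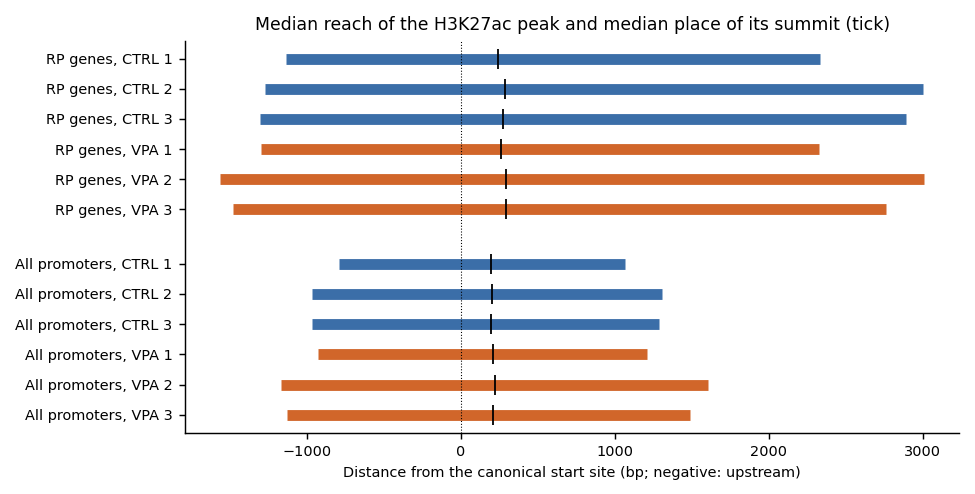
Median upstream and downstream reach of the H3K27ac peak from the canonical start, in bp, with the median summit as a tick, in each library for 75 ribosomal protein genes and for 11661 promoters. The downstream reach of the genes lies between 2324 and 3010 bp in the 6 libraries.

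Some members share their promoter with another gene record. Another protein-coding start lay within 1 kb of 16 members, on the opposite strand in 13 of them. On the same strand were RPS10 with RPS10-NUDT3 at 2 bp, RPL17 with RPL17-C18orf32 at 879 bp and RPL26 with a record without a symbol at 6 bp. The RPS10 and RPL17 neighbours carry the symbol of the member, so they may not be separate genes. All are kept in the counts here, and the share over all genes is not given. Examples are RPL7A with MED22 at 87 bp, RPL12 with LRSAM1 at 104 bp, RPL9 with LIAS at 134 bp and RPL15 with NKIRAS1 at 142 bp. In 19 members another start lay under the H3K27ac peak in every library, and in none of these was it the start of another member. The signal of such pairs cannot be told apart in these lists. On chromosome 19 lay 12 members (15.6%), against 7.72% of all genes.

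CTCF was found at fewer members. A CTCF peak lay within 1 kb of the gene record at 29, 36 and 32 members in CTRL and at 29, 33 and 28 in VPA (32.3 ± 3.51 and 30 ± 2.65, n = 3), a difference within the spread between libraries. It was present in all 6 libraries at 26 members (33.8%), in some at 10 and in none at 41. Of all genes, 24.3% had CTCF in all 6 libraries. At the canonical start CTCF was present in all 6 libraries at 26 members, in some at 12 and in none at 39, against 24.9% of all genes in all 6. Among promoters with H3K27ac in all 6 libraries, the share with CTCF in all 6 was 33.8% in the members (24 of 71) and 33.4% overall (3710 of 11109). No member had CTCF in the 3 libraries of one group and in none of the other.

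Strong CTCF sites were at RPL10A, RPL26, RPLP0 and RPL5. At RPL10A the CTCF pileup was 3059, 1510 and 1317 fragments in CTRL and 4776, 1437 and 1260 in VPA. RPLP0 had 2780, 1610 and 1392 in CTRL and 3787, 1640 and 1358 in VPA. Replicate 1 of both groups was the highest at RPL10A and RPLP0. RPL26 and RPL5, the latter a partner of RPL11 in holding MDM2, had CTCF ranks by −log10 q-value of 98.4 and 96.9 on average over the 6 libraries. RPS15, RPL38, RPS20, RPS14 and RPS3A also had mean ranks above 90. At 17 of the 26 members the summit lay within 500 bp upstream of the canonical start, at 3 within 500 bp downstream and at 6 farther away. The weaker sites with CTCF in all 6 libraries were at RPS26, RPL6, RPL32, RPSA, RPL27, RPL11, RPL7, RPS19, RPS28, RPS3, RPS2, RPL22, RPL3 and RPL9, and those at RPL6, RPL22, RPL3, RPL7, RPL9 and RPS19 had their summit more than 500 bp from the canonical start. CTCF in some libraries was found at RPL24, RPL35, RPL15, RPL29, RPL13, RPL7A, RPL23A, RPS24, RPS29 and RPS27L, with at most 196 fragments over a summit. RPL10L, which had no H3K27ac peak, had CTCF in all 6 libraries, with pileups of 588, 311 and 265 in CTRL and 877, 350 and 288 in VPA.

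Letters of the CTCF motif were found near some of these summits. The letters AGNNGGC, chosen after the summits were seen, lay on either strand within 50 bp of the summit at 14 of the 26 members (53.8%), against 63.9% of the 4635 promoters with CTCF in all 6 libraries. Sites of 30 bases are written out for 4 of the strongest, in build hg38, with AGNNGGC in capitals and each read on the strand that holds it.
RPL10A, chr6:35468275-35468304, plus strand: cccagcggccagAGAAGGCcgcgcttctcg
RPLP0, chr12:120201327-120201356, minus strand: tccagcccagcAGGTGGCagcagctcagag
RPS15, chr19:1438281-1438310, plus strand: cctccagacggcAGAGGGCgcgtgttcgcc
RPL38, chr17:74203545-74203574, plus strand: acttcgaccacaAGGGGGCagggctgctga
RPL26, RPS14 and RPS3A had no such letters within 50 bp of their summits.

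Without the replicate block, no member was called for CTCF by limma over 4635 promoters. On the rank of the −log10 q-value, 0 of 26 were called (1 at an unadjusted p below 0.05), against 0% higher and 0% lower of all promoters. At an unadjusted limma p below 0.05, 27 of all 4635 promoters were higher and 40 lower. With the replicate block, RPL27 was the 1 member called lower in log2 pileup, against 1.21% of all promoters. Its CTCF pileup was 422, 593 and 521 fragments in CTRL and 58, 472 and 458 in VPA, with a log2 difference of −1.09 (SE 0.27, blocked limma adjusted p = 0.00864). Without the block the SE was 0.69 and the limma adjusted p was 1.00. VPA replicate 1 was far below the other 5 libraries at this gene. RPL32 was likewise low in replicate 1 of both groups, with 158, 816 and 761 in CTRL and 87, 555 and 714 in VPA, against the direction of replicate 1 at the strongest sites. The cause of this was not tested.

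**Figure D5:**
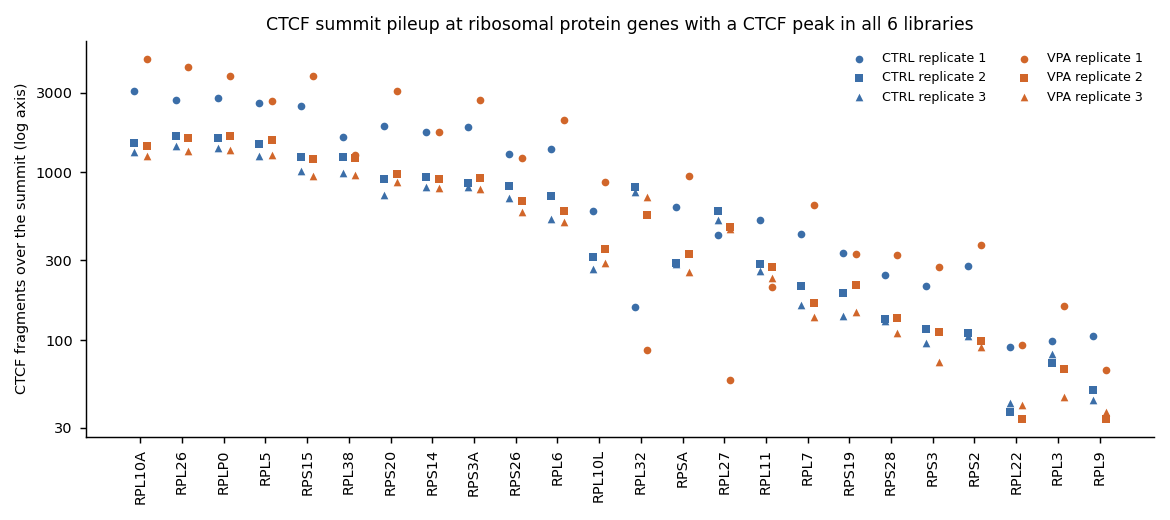
CTCF fragments over the peak summit (log axis) in each of the 6 libraries at 24 of the 26 ribosomal protein genes with a CTCF peak in all of them, ordered by mean rank. Blue marks are CTRL and orange marks are VPA, with circles, squares and triangles for replicates 1, 2 and 3. Replicate 1 is the highest of its group at the strongest sites and the lowest at RPL32 and RPL27.

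The H3K27ac difference was also read by the presence of CTCF at the gene record. Of the 24 members with both marks in all 6 libraries, 19 were called lower for H3K27ac pileup, with a median log2 difference of −0.84, beside 25.6% and −0.43 over all promoters. Of the 37 members with H3K27ac and no CTCF peak, 25 were called lower, with a median of −0.77. The difference between the shares was not tested.

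Related gene lists were read on the same scale. Of 76 mitochondrial ribosomal protein genes, which serve the separate ribosome of the mitochondrion, 12 were called lower in H3K27ac pileup and 0 higher, with a median log2 difference of −0.37. Of 16 translation factors and other genes with TOP messenger RNAs, 11 were lower and 0 higher, with a median of −0.74. Among them, EEF2, the translocation factor, differed by −1.01 (limma adjusted p = 0.00324), and EEF1A1, which delivers aminoacyl-tRNA, by −0.92 (limma adjusted p = 0.00634). FAU, which encodes a ubiquitin-like protein fused to a small-subunit protein, differed by −0.11 (limma adjusted p = 0.742). Of 15 ribosome biogenesis genes 3 were lower, with a median of −0.34, and of 12 regulators of ribosomal protein genes and of mTOR signalling 4 were lower, with a median of −0.48. For comparison, 25.6% of all promoters were lower, with a median of −0.43. The median of the mean rank was 82.6 in the mitochondrial list and 96.8 in the TOP list, against 99.1 in the members.

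The cell line was checked by H3K27ac at marker genes. LHX1, NEFM, NEFL, INA and VIM, known from HEK293T cells, had a peak in all 6 libraries and PAX2 had none. Of genes that mark other cell types, ALB, CD3E, PTPRC and GFAP had no peak in any library, and MYOD1 had a peak in 2.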

How the data were processed

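H3K27ac and CTCF ChIP-seq of HEK293T cells was analysed from 12 libraries, 3 CTRL and 3 VPA for each antibody. The 6 input libraries of the 18 samples were not analysed here. Groups and replicate numbers came from the sample labels. Per the labels and the methods of the study, reads were aligned to hg38 with Bowtie2 and peaks were called in each library with MACS3 3.0.0a7 for paired ends at a q-value of 0.05, with no pooling of replicates. Whether inputs served as control and how duplicates were treated is not given in the sources used here.

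Each peak in the deposited lists comes with an interval, a summit, a score, a fold enrichment (the ratio of summit to local background) and significance as −log10 p and −log10 q-value, none of them altered after the authors' peak calling. The score was not used for a result. The lists hold no read totals, so the read depth is unknown. Summit pileups and local backgrounds were solved from the fold and the −log10 p-value, and in every list at least 99.99% of pileups were whole within 0.05. The lowest local background of a list, 3.51 to 3.95 fragments, served as relative depth.

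Start sites came from GENCODE release 44. The main start was the 5′ end of the gene record and the alternative that of the canonical transcript. Where several peaks lay within 1 kb, their widths were summed and each other measure took its highest value. Width (log2), ranks (normal scores) and log2 pileup were compared with limma 3.58.1 (R 4.3.3) with an intensity trend over all promoters with a peak in all 6 libraries, with Benjamini-Hochberg adjustment over them and a threshold of 0.05. A single value compared over 3 against 3 libraries cannot have an exact permutation p below 0.1, so medians over the members are given with their SD and no test. Python 3.11.15 with pandas 2.3.3 was used for the other steps. The steps were tested on simulated data with known answers.

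Same-numbered libraries deviated together, as did libraries 2 and 3 of opposite groups. The correlation of deviations from the group means of the log2 pileup was 0.67, 0.19 and 0.31 for H3K27ac (numbers 1, 2 and 3). For CTCF it was 0.81, 0.62 and 0.77. Libraries 2 and 3 of opposite groups correlated at 0.39 and 0.38 for H3K27ac, above the same-number values of 2 and 3. For CTCF these cross values were 0.71 and 0.66. The fit with the replicate number as a block treats same-numbered libraries as pairs. The labels do not state such a pairing, and these values do not show it for numbers 2 and 3.

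Genes named in the text were, for each H3K27ac measure, up to 5 members with the lowest adjusted p in each direction, or the 3 largest non-overlapping changes where fewer than 3 passed, and members without an H3K27ac peak in some library, with a CTCF peak, with the 3 highest and lowest ranks and widths, the paralogues, the stalk and RPSA. Others were named after their values were seen. For 3 members no values are reported here by name, and they stay in all counts, medians and fits. The members and lists were chosen with earlier results of these data known. Log2 pileup and log2 fold without a block were planned as alternatives to the fold rank. Their fits with a block, those of pileup centred on the median promoter, at the canonical start, with libraries left out, and for CTCF were added after seeing the data. Promoter letters came from RefSeq (GRCh38.p14), and those printed are identical to hg38.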

Additional observations from a re-analysis of the deposited data

How the results depend on the processing

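Peak lists give no read totals and no spike-in was stated, so pileups are relative to depth. Requiring the peak within 500 bp, or its summit within 1 kb, moved the difference in members with an H3K27ac peak from 0 to 0.667. The median rank by −log10 q-value, 0.16 percentile points higher in VPA, turned to −0.169 with equal list lengths and −0.584 among shared promoters, and the rank by fold went from 0.147 to −0.365 and −0.287. Members called for the q-value rank went from 22 (19 higher, 3 lower) to 9 with equal list lengths (2 higher, 7 lower). Among shared promoters they went to 10 (3 higher, 7 lower). Members called for the fold rank went from 0 to 1 with the replicate block and to 54 with log2 pileup, 71 with log2 pileup and the replicate block, 58 with centred pileup and the block and 47 with log2 fold and the block. For CTCF the block gave 1 member lower in place of 0 by rank, against 0.841% of all promoters. By pileup it also gave 1 lower in place of 0, against 1.21%. Leaving out each library in turn gave 0 to 1 member called for width, 0 to 67 for pileup and 46 to 58 for centred pileup, of which 1 was higher without CTRL replicate 1. The share of all promoters called is not given for fits with a library left out or with equal list lengths. With the block, members lower in q-value rank went from 3 to 6. In the settings listed, the cause was not tested.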
